A study of Homo sapiens with 26 samples.

Results

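Ribosome footprints of vehicle-treated Huh7 cells were compared between 10 and 60 min after vehicle was added, which shows how footprint levels differed when no compound was present. The comparison covers 6 of the 26 samples of the series, 3 collected at 10 min and 3 at 60 min, chosen by their labels as vehicle footprint libraries of the first ribosome profiling study. Huh7 cells are a human liver cancer line, derived from a hepatocellular carcinoma. In both groups the medium was exchanged for fresh, prewarmed medium with 0.5% DMSO, and the plates went back to the incubator until harvest on ice in buffer with cycloheximide. Both groups therefore share the medium change, the solvent and the cell line, and they differ in the time since the exchange. A plate harvested before the exchange was not analysed here, so the solvent, the fresh medium and the passing of time cannot be told apart. The other 12 footprint libraries of that study received 0.3 or 1.5 μM PF-06446846, a compound that stalls translation of a small number of proteins, for the same 2 times, and 2 more vehicle libraries at 60 min come from the second study.

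Each footprint is an mRNA fragment protected by a ribosome, so the number of footprints on a coding sequence (CDS) depends on both the amount of the mRNA and its translation, which footprints alone cannot separate. Some mRNAs turn over within minutes. Among them are the immediate early genes, whose transcription starts without new protein synthesis when serum, growth factors, stress or fresh medium reach the cell, and the feedback regulators that switch the same signals off. Histone mRNAs of the replication-dependent kind are made in S phase and end in a stem-loop, mRNAs of ribosomal proteins carry a 5′ terminal oligopyrimidine (TOP) tract through which growth signalling controls their translation, and 13 proteins of oxidative phosphorylation are encoded and translated inside mitochondria.

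Vehicle libraries held 6414227 to 17234235 reads on the CDS, over 12325 transcripts, of which 11098 passed the filter on low counts. Levels are given in counts per 1000000 CDS reads (CPM), scaled with TMM factors. These were 1.031, 1.06 and 1.011 at 10 min and 0.995, 0.942 and 0.965 at 60 min, without overlap. The scaling thus raised 60-min levels relative to 10-min levels. Of 10 hepatocyte markers 9 had an entry, among them AFP (9478 to 14170 CPM without TMM factors) and APOA1 (1397 to 1703 CPM). ALB had no entry under that name. Of 5 markers of blood, endothelial and fibroblast cells, 1 had an entry, PECAM1, at 11.5 to 26.7 CPM. Each library pools many cells, so fewer cells with a transcript and less of it in each cell cannot be told apart. The replicates are described as biological replicates, and any 2 libraries of a group differed by more than counting noise, with a mean chi-square per transcript of 15.7 to 33.9. Whether those plates were handled on separate days is not stated, so the p-values measure the spread between these samples.

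The promoters of 4 genes whose libraries did not overlap between the times are shown first, since the genes respond to different signals and their promoters hold different short motifs. None of the 4 passed the FDR of the main test in vehicle. The sequences are from RefSeq (GRCh38.p14), 250 bases before to 50 bases after the transcription start, read 5′ to 3′ on the strand of the gene. Capitals mark the motifs. TXNIP, on the minus strand at chr1:145996530-145996829, holds CACGAG at 88 and again at 77 bases before the start, which is the arrangement of a carbohydrate response element (2 copies of CACGNG, 5 bases apart), the site of the glucose-responsive factors MondoA and ChREBP. DUSP1, on the minus strand at chr5:172771146-172771445, holds the cyclic AMP response element TGACGTCA at 125 and the E-box CACGTG at 108 bases before the start. EGR1, on the plus strand at chr5:138465229-138465528, holds 2 CArG boxes, the site of serum response factor, starting 105 and 83 bases before the start. H2BC3, on the minus strand at chr6:26043664-26043963, holds the octamer ATTTGCAT at 120 bases before the start, a motif bound by OCT1 in histone H2B genes.
TXNIP: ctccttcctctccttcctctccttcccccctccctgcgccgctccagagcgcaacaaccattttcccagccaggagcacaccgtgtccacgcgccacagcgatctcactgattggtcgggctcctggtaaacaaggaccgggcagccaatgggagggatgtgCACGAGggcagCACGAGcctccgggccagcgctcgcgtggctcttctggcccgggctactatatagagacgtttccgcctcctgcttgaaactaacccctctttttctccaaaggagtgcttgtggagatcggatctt
DUSP1: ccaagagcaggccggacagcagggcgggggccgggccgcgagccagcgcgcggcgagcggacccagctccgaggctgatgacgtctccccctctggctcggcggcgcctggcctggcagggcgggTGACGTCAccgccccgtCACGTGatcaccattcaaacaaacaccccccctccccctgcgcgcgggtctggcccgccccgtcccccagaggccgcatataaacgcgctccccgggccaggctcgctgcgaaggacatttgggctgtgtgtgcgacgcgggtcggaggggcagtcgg
EGR1: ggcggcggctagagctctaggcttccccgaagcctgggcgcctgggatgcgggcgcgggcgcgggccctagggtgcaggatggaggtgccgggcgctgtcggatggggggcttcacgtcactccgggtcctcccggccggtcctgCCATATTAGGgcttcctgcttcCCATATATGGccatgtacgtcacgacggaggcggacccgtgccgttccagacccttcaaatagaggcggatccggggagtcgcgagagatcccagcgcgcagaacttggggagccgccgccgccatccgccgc
H2BC3: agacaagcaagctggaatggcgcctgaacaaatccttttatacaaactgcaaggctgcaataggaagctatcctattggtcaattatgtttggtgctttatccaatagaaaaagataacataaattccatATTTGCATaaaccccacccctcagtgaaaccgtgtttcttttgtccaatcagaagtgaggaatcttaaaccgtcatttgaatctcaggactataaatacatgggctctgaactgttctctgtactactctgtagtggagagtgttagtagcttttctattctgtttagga
Searched on both strands of 27305 promoters of the same length, the carbohydrate response element was found in 0.0732%, the CArG box in 1.29%, TGACGTCA in 1.98%, CACGTG in 7.43% and the octamer in 1.8%. The E-box can overlap the carbohydrate response element, since CACGTG is 1 of the forms that CACGNG takes. These matches describe the letters of the promoters and were not tested for binding.

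In the whole table no transcript passed the FDR of 0.1 (edgeR, 0 of 11098, 0% higher and 0% lower at 60 min), and the smallest adjusted p was 0.135. At an unadjusted p under 0.05 there were 769 transcripts, 338 higher at 60 min (3.05%) and 431 lower (3.88%). These shares moved when a library was left out, to 5.79% and 5.1% without replicate 3 at 10 min, 4.98% and 5.58% without replicate 1 at 60 min, 1.94% and 3.02% without replicate 1 at 10 min, 1.88% and 1.51% without replicate 2 at 10 min, 1.98% and 2.57% without replicate 2 at 60 min and 2.16% and 2.52% without replicate 3 at 60 min. With library totals in place of TMM factors they were 1.16% and 8.68%, with a median log2 fold change of −0.10 over all transcripts. Counts of class members under these settings are to be read against them. DESeq2 called 43, all higher at 60 min, but its filter on mean counts left only 603 highly read transcripts with an adjusted p, of which the 43 make 7.13%. Without that filter, an alternative chosen after seeing the data, DESeq2 called 17 of 12042 transcripts, 14 higher (0.116%) and 3 lower (0.0249%). The 17 were TXNIP, GADD45B, ID1, DUSP1, RND1, AMOTL2, TXNL4A, EEF1D (on 2 transcripts with the same counts), H2BC3, H2BC8, H4C4, H4C8 and H4C16 among the higher, and MYC, MYCN and FOXA3 among the lower. Over the 8497 transcripts whose counts reached 50 in all 6 libraries, the median absolute difference between 2 libraries was 0.149 to 0.227 on the log2 scale within a time and 0.125 to 0.258 between times. The 2 closest libraries were replicate 3 of each time, and the range between times contained the range within a time.

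The 4 higher transcripts with the smallest p were TXNIP, ID1, GADD45B and DUSP1, each above its 10-min values in all 3 libraries at 60 min. TXNIP belongs to the glucose-responsive list and the other three to the short-lived regulators. Positions are those of the gene in GENCODE 44 (GRCh38), and the footprints lie on its coding exons. TXNIP (chr1:145992435-145996579, minus strand) encodes thioredoxin-interacting protein, an inhibitor of glucose uptake whose mRNA responds to glucose. It was at 22.0, 18.1 and 15.7 CPM at 10 min and at 53.8, 49.3 and 34.3 CPM at 60 min, so the groups did not overlap. The log2 fold change was 1.29 ± 0.18 (SE; adjusted p = 0.135), or 2.44-fold. GADD45B (chr19:2476127-2478257, plus strand), a stress sensor upstream of p38 and JNK kinases, was at 12.3, 10.8 and 16.4 CPM at 10 min and at 29.1, 32.1 and 55.5 CPM at 60 min. Its log2 fold change was 1.58 ± 0.24 (SE; adjusted p = 0.135), or 2.99-fold, the largest among the named genes that were higher.

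ID1 (chr20:31605289-31606510, plus strand), an inhibitor of basic helix-loop-helix factors and a target of BMP signalling, had far more reads than the other 3, with 3252 reads a library on average. It was at 214, 195 and 214 CPM at 10 min and at 308, 390 and 374 CPM at 60 min. Its log2 fold change was 0.78 ± 0.12 (SE; adjusted p = 0.135). DUSP1 (chr5:172768096-172771195, minus strand), a phosphatase that switches off MAP kinases, was at 16.8, 12.9 and 22.96 CPM at 10 min and at 33.1, 34.9 and 67.4 CPM at 60 min. Its log2 fold change was 1.38 ± 0.28 (SE; adjusted p = 0.71), and replicate 3 was the highest library at each time.

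**Figure D1:**
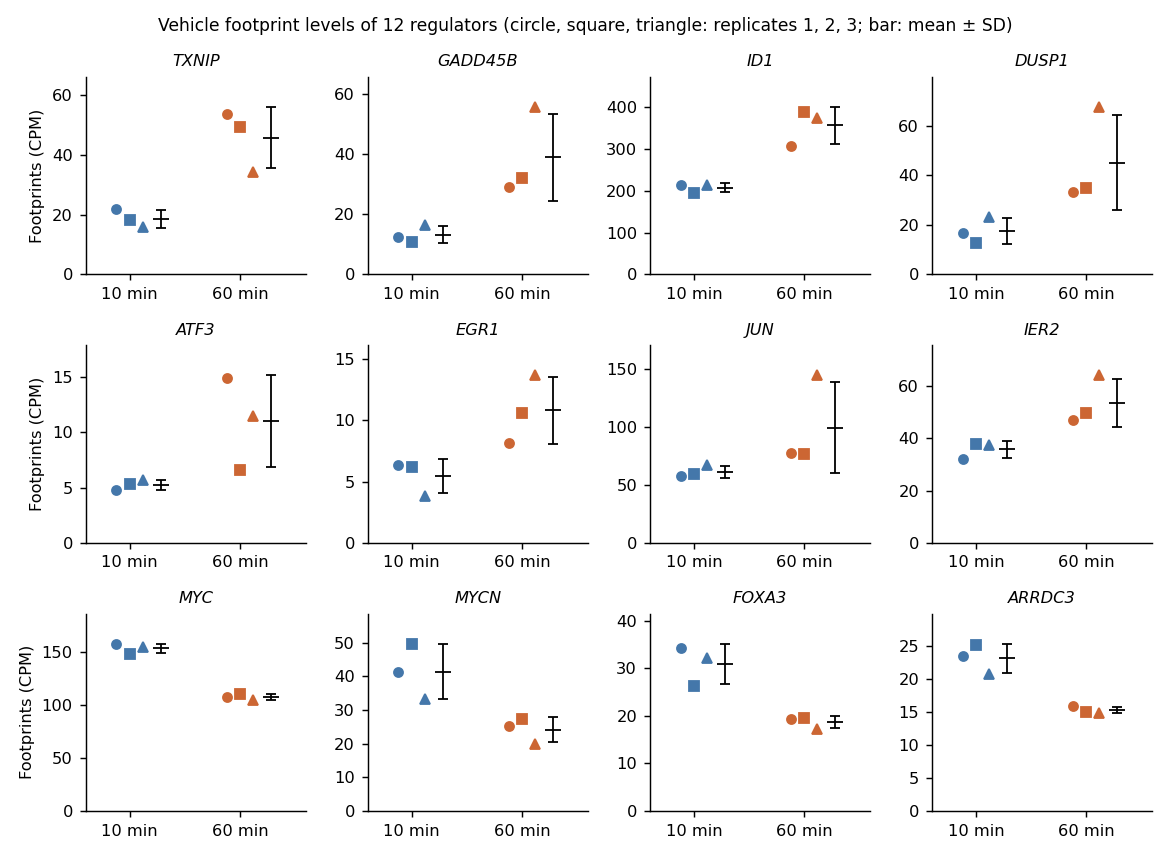
Footprint level in CPM (vertical axes, linear, from 0) of 12 regulators in each of the 3 vehicle libraries at 10 min (blue) and at 60 min (orange), with the mean ± SD in black. The panels show only genes whose libraries do not overlap between the 2 times, and other regulators, such as FOS, JUNB and CCN1, overlapped. Of the 12 genes, 8 are higher at 60 min, such as TXNIP (18.6 against 45.8 CPM on average), and 4 are lower, such as MYC (154 against 108 CPM). Of 158 short-lived regulators tested, 20 were higher and 21 lower without overlap, where 5.77% and 6.62% of all transcripts were.

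Of the AP-1 and related immediate early factors, ATF3, a repressor induced by stress, was at 4.78, 5.29 and 5.71 CPM at 10 min and at 14.9, 6.63 and 11.5 CPM at 60 min (log2 fold change 1.03 ± 0.27, SE). EGR1, the zinc finger factor that responds to serum, was at 6.36, 6.20 and 3.85 CPM and then at 8.15, 10.6 and 13.7 CPM (0.96 ± 0.24). JUN was at 57.6, 58.7 and 66.8 CPM at 10 min and at 77.3, 76.2 and 144 CPM at 60 min (0.70 ± 0.22). All 60-min libraries of these 3 genes lay above the 10-min libraries, with replicate 3 of JUN well above its other two libraries. IER2 had a log2 fold change of 0.59 ± 0.14, KLF10, a zinc finger factor induced by TGFβ, of 0.66 ± 0.17 and KLF6 of 0.25 ± 0.11, again without overlap. JUNB (0.89 ± 0.34) and FOS (0.78 ± 0.43) overlapped between the times, and FOS had only 25.0 reads a library. Genes of the same list also lay to the other side. Of its 4 lower members MYC is described with the growth regulators, and the others were the repressors BCL6 (−0.63 ± 0.19) and NFIL3 (−0.56 ± 0.18), both without overlap, and BHLHE40 (−0.55 ± 0.23), with overlap. Without replicate 2 at 10 min NFIL3 was at −0.35 and BHLHE40 at −0.20. The nuclear receptor NR4A2 had a log2 fold change of −0.44 ± 0.29 with overlap, which ran from −0.94 to −0.22 over 17 alternatives of the processing. ZFP36, which destabilises mRNAs with AU-rich elements, was at 14.2 ± 1.27 CPM at 10 min and 13.1 ± 2.29 CPM at 60 min (SD, n = 3), and MCL1, a short-lived survival factor, was at 125 ± 6.38 and 133 ± 16.2 CPM (SD, n = 3).

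Among secreted and feedback genes, CCN1, a matricellular protein induced by serum, was at 39.8, 31.5 and 60.5 CPM at 10 min and at 62.8, 59.9 and 110 CPM at 60 min (log2 fold change 0.83 ± 0.26, SE). Its 60-min replicate 2 lay just below its 10-min replicate 3, so the groups overlapped. NFKBIA, the inhibitor of NF-κB that NF-κB itself induces, was at 38.3, 37.0 and 60.1 CPM and then at 76.8, 56.0 and 130 CPM (0.96 ± 0.28). CCN2 had a log2 fold change of 0.42 ± 0.22 with overlap and AMOTL2, like CCN1 and CCN2 a target of YAP, of 0.60 ± 0.14 without. In DUSP1, GADD45B, JUN, JUNB, CCN1 and NFKBIA the highest 60-min library was replicate 3. Without that library the log2 fold change was 0.97 for DUSP1, 1.23 for GADD45B, 0.33 for JUN, 0.24 for JUNB, 0.49 for CCN1 and 0.56 for NFKBIA.

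Several regulators were lower at 60 min in every library. MYC, the growth-promoting transcription factor, was at 158, 148.7 and 155 CPM at 10 min and at 108, 111 and 105 CPM at 60 min. Its log2 fold change was −0.51 ± 0.10 (SE; adjusted p = 0.71), a small difference with little spread in either group. MYCN, its paralog, was at 41.2, 49.8 and 33.3 CPM and then at 25.4, 27.3 and 19.9 CPM (−0.78 ± 0.17). FOXA3 (chr19:45864326-45873797, plus strand), a forkhead factor of hepatocytes, was at 34.4, 26.2 and 32.3 CPM and then at 19.3, 19.5 and 17.2 CPM (−0.73 ± 0.14). ARRDC3, an arrestin that like TXNIP carries the α-arrestin fold, was at 23.5, 25.1 and 20.7 CPM at 10 min and at 15.8, 15.04 and 14.9 CPM at 60 min (−0.61 ± 0.14), opposite in direction to TXNIP. CD83, a surface protein of the immunoglobulin family, had the lowest log2 fold change of the named genes (−1.72 ± 0.39), from 1.91, 2.27 and 2.56 CPM to 1.097, 0.547 and 0.514 CPM, on only 17.7 reads a library. FBXO5, an inhibitor of the anaphase-promoting complex, had a log2 fold change of −0.51 ± 0.16, and AMD1, the decarboxylase of polyamine synthesis, of −0.49 ± 0.12, both without overlap.

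Short-lived regulators as a class did not lean either way in vehicle. Of 162 in the files 158 were tested, and 23 were higher and 19 lower at an unadjusted p under 0.05, against 3.05% and 3.88% of all transcripts. Without overlap between the times there were 20 higher and 21 lower, where 5.77% and 6.62% of all transcripts were. The median log2 fold change of the class was 0.01, against −0.00 over all transcripts, while its quartiles were −0.19 and 0.27 against −0.15 and 0.13. With library totals the class had 17 higher and 30 lower at an unadjusted p under 0.05, and without replicate 3 at 60 min it had 13 higher and 21 lower. Without replicate 2 at 10 min it had 19 higher and 12 lower. By list, 9 of 43 immediate early transcription factors were higher and 4 lower, 12 of 76 feedback and secreted genes were higher and 10 lower, and 2 of 39 short-lived growth regulators were higher and 5 lower, at the same unadjusted p. The class took 1.38%, 1.33% and 1.35% of CDS reads at 10 min and 1.30%, 1.40% and 1.48% at 60 min, which did not differ beyond the spread (exact permutation test, two-sided, p = 0.6). With 3 libraries against 3, the smallest p this test can give is 0.1.

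**Figure D2:**
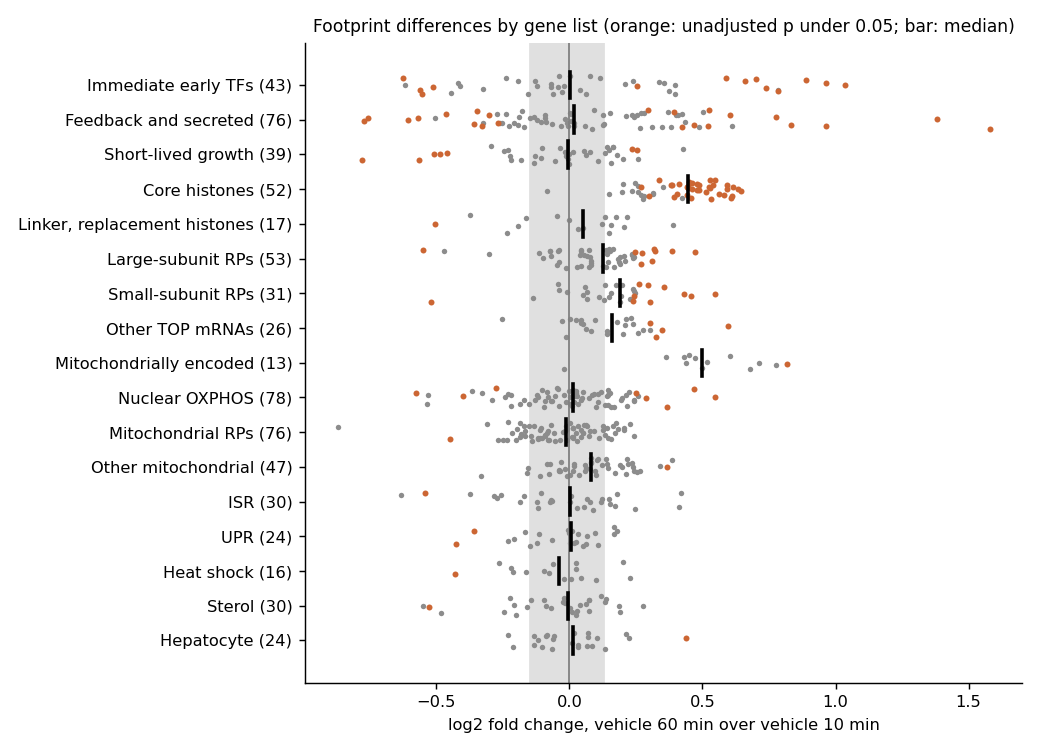
Log2 fold change between vehicle at 60 and 10 min (horizontal axis) for each tested member of 17 gene lists, with the number tested in parentheses, the list median as a black bar, members at an unadjusted p under 0.05 in orange, and the quartile range of all 11098 transcripts shaded. Immediate early and feedback genes spread to both sides, core histones, with 1 exception, lie to the right of the shaded band (median 0.45), and the ISR, UPR and sterol lists centre near 0.

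Core histones leaned to one side. Of 52 replication-dependent core histone genes, all tested, 51 had a log2 fold change above 0, with a median of 0.45, and 37 were higher at an unadjusted p under 0.05 and 0 lower, against 3.05% and 3.88% of all transcripts. In 18 of them the 60-min libraries all lay above the 10-min libraries, as in 5.77% of all transcripts. DESeq2 called 30 of the 51 core histones to which it gave an adjusted p, where it called 43 (7.13%) of all such transcripts, these 30 among the 43. Reads of near-identical histone copies cannot be told apart and were placed on several genes, so these 52 genes are not independent, and 2 of them, H4C14 and H4C15, had the same counts. The count at an unadjusted p under 0.05 depended on single libraries. It was 23 without replicate 1 at 10 min, 24 without replicate 2, 19 without replicate 2 at 60 min and 24 without replicate 3, while 46 were counted without replicate 3 at 10 min and 48 without replicate 1 at 60 min. The share of all transcripts that were higher moved in the same directions, between 1.88% and 5.79%.

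By family the ranges overlapped, and no test compared the families. All 17 H2B genes and 10 of 11 H4 genes were higher at an unadjusted p under 0.05, with medians of 0.46 and 0.56, compared with 4 of 13 H2A genes and 6 of 11 H3 genes, with medians of 0.31 and 0.30. At that p 3.05% of all transcripts were higher. Without overlap between the times, 7 H2B, 7 H4, 1 H2A and 3 H3 genes were higher, where 5.77% of all transcripts were. Genes of a family share multiply placed reads and are not independent. H2BC3 (chr6:26043227-26043713, minus strand) was at 468, 441 and 559 CPM at 10 min and at 728, 714 and 689 CPM at 60 min. Its log2 fold change was 0.54 ± 0.12 (SE; adjusted p = 0.71), and the groups did not overlap. H4C8 (chr6:26285126-26285534, minus strand) was at 764, 598 and 839 CPM and then at 1142, 1299 and 1002 CPM (0.65 ± 0.15), the largest difference among the core histones. H2BC8 (0.53 ± 0.13), H4C4 (0.61 ± 0.15) and H4C16 (0.61 ± 0.15) were also without overlap. Of the genes with a promoter in RefSeq, 12 of 15 H2B, 9 of 12 H2A, 1 of 9 H3 and 0 of 9 H4 held the octamer shown above for H2BC3.

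A read that fits several copies was counted on each, and a read that fits more than 5 was left out, so a family sum is relative to CDS reads but is not a plain share of them. Summed in this way, H4 came to 1.16%, 0.980% and 1.37% of CDS reads at 10 min and 1.43%, 1.71% and 1.52% at 60 min. These did not overlap (exact permutation test, two-sided, p = 0.1, the smallest possible). H2B came to 0.953%, 0.910% and 1.20% and then 1.17%, 1.45% and 1.38%, where replicate 1 at 60 min lay below replicate 3 at 10 min (exact permutation test, p = 0.2). All histones together came to 4.91% ± 0.610 at 10 min and 5.95% ± 0.598 at 60 min (SD, n = 3; exact permutation test, p = 0.2).

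The 17 linker and replacement histones, whose mRNAs were listed apart, had a median of 0.05, with 0 higher and 1 lower at an unadjusted p under 0.05, where 3.05% and 3.88% of all transcripts were. The 1 was the linker histone H1-2, at 573, 1075 and 624 CPM at 10 min and at 557, 515 and 532 CPM at 60 min. Its log2 fold change was −0.50 ± 0.20 (SE), and it was −0.16 without replicate 2 at 10 min, the library that stood high. H1-4 was high in the same library, at 911 CPM against 488 and 591 CPM, and its log2 fold change was −0.37 ± 0.19 with that library and −0.07 without it.

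**Figure D3:**
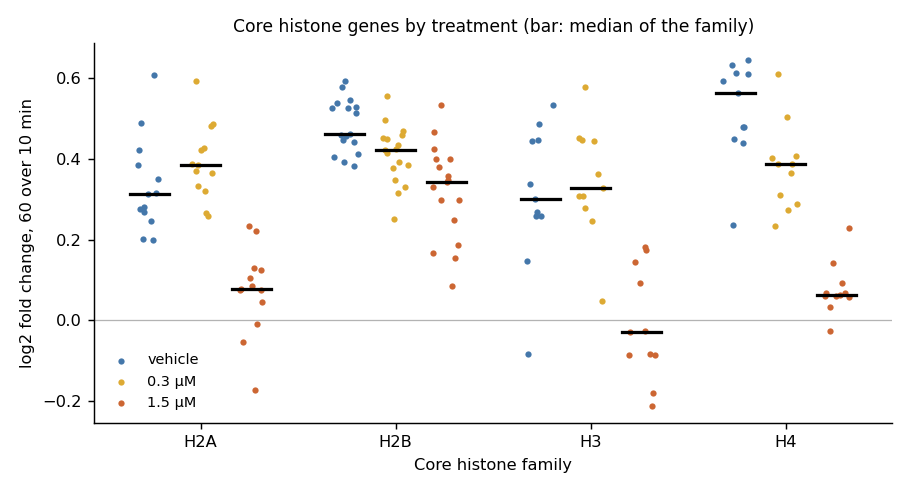
Log2 fold change between 60 and 10 min (vertical axis) of each core histone gene by family, in vehicle (blue), 0.3 μM (yellow) and 1.5 μM (orange) libraries, with family medians as black bars. H2B genes lie above 0 under all treatments (medians 0.46, 0.42 and 0.34), while H4 genes have medians of 0.56, 0.39 and 0.06.

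Cytosolic ribosomal proteins together took 7.26% ± 0.443 of CDS reads at 10 min and 7.45% ± 0.135 at 60 min (SD, n = 3), which did not differ beyond the spread (exact permutation test, two-sided, p = 0.7). Of 84 genes, 66 had a log2 fold change above 0, with a median of 0.14, and 17 were higher and 2 lower at an unadjusted p under 0.05, where 3.05% and 3.88% of all transcripts were. By subunit the median was 0.13 for 53 large-subunit genes, with 8 higher and 1 lower, and 0.19 for 31 small-subunit genes, with 9 higher and 1 lower. With library totals the class median was 0.05 against −0.10 for all transcripts, and 5 were higher and 2 lower. Without replicate 1 at 10 min 4 were higher and 4 lower, without replicate 2 at 60 min 4 were higher, without replicate 3 at 60 min 7, and without replicate 2 at 10 min 10. RPS28, at 481, 498 and 669 CPM and then at 752, 832 and 819 CPM, had the largest log2 fold change of the small subunit (0.55 ± 0.14, SE), without overlap. RPS29 (0.43 ± 0.12) and RPS18 (0.36 ± 0.11) did not overlap either, and DESeq2 called these 3 and no other of 75 ribosomal protein genes to which it gave an adjusted p. It called 43 (7.13%) of all such transcripts, but 30 of the 43 were core histones, so the 7.13% is not a plain background for other genes. In the large subunit, RPL26L1, a paralog of RPL26, had a log2 fold change of 0.39 ± 0.12, RPL34 of 0.32 ± 0.12 and RPL10L, a retrocopy of RPL10 that shares most of its sequence, of 0.47 ± 0.19. The 2 lower genes were RPL39 (−0.55 ± 0.25) and RPS20 (−0.52 ± 0.23). RPL39 was at 253, 527 and 265 CPM at 10 min and at 283, 223 and 208 CPM at 60 min, and RPS20 at 49.7, 101 and 55.2 CPM and then at 51.4, 50.1 and 42.3 CPM, so in both replicate 2 at 10 min stood high, as it did for H1-2. Without that library the log2 fold change was −0.115 for RPL39 and −0.12 for RPS20.

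As a share of CDS reads the small subunit was at 2.56%, 2.79% and 2.81% at 10 min and at 2.89%, 2.94% and 2.87% at 60 min, without overlap (exact permutation test, two-sided, p = 0.1). Such shares were compared for 21 lists, among others, without adjustment, and these lists were chosen with earlier results of these data known. The smallest p this test can give is 0.1, which the list of 4 glucose-responsive genes reached as well. The large subunit was at 4.23%, 4.89% and 4.50% and then at 4.72%, 4.43% and 4.50%, with overlap (exact permutation test, p = 0.9). The other mRNAs with TOP tracts, 26 elongation factors, nucleolar and RNA-binding proteins, had a median of 0.16, with 4 higher and 0 lower at an unadjusted p under 0.05, against the same shares of all transcripts. With library totals the median was 0.06 against −0.10 for all transcripts, with 1 higher and 1 lower, and 1 was higher without replicate 1 at 10 min, 2 without replicate 2 at 60 min, 6 without replicate 1 at 60 min and 7 without replicate 3 at 10 min. Their share was 2.98% ± 0.129 at 10 min and 3.29% ± 0.114 at 60 min (SD, n = 3; exact permutation test, p = 0.1), without overlap. The elongation factor subunit EEF1D was at 400, 345 and 422 CPM and then at 647, 609 and 509 CPM (0.60 ± 0.13), and the nucleolar protein NPM1 had a log2 fold change of 0.35 ± 0.14, and of 0.18 without replicate 1 at 60 min.

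Mitochondrially encoded genes had the highest median of the lists, 0.50 over 13 genes, but also the largest spread between replicates. Only MT-ND4L was higher at an unadjusted p under 0.05 (0.82 ± 0.27, SE), and no gene of the 13 separated the times. MT-CO1, the catalytic subunit of cytochrome c oxidase, was at 284, 1101 and 708 CPM at 10 min and at 1658, 921 and 774 CPM at 60 min, where replicate 1 was the lowest library at 10 min and the highest at 60 min. MT-ND1 (0.47 ± 0.39) and MT-CO3 (0.77 ± 0.40) overlapped in the same way. Together the 13 genes took 0.0752%, 0.286% and 0.174% of CDS reads at 10 min and 0.378%, 0.209% and 0.174% at 60 min (exact permutation test, two-sided, p = 0.5). The list median was 0.17 without replicate 1 at 10 min, 0.16 without replicate 1 at 60 min and 1.07 without replicate 2 at 10 min. In that last setting 11 of the 13 were higher at an unadjusted p under 0.05, where 1.88% of all transcripts were, and without replicate 3 at 60 min 5 were, against 2.16%.

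Nuclear-encoded mitochondrial genes had a median of 0.02. Of 201 tested, 6 were higher and 4 lower at an unadjusted p under 0.05, against 3.05% and 3.88% of all transcripts. These counts turned on single libraries, with 22 higher and 10 lower without replicate 3 at 10 min, 13 and 16 without replicate 1 at 60 min, 1 and 0 without replicate 2 at 10 min, 1 and 1 without replicate 2 at 60 min, 3 and 2 without replicate 3 at 60 min and 6 and 8 without replicate 1 at 10 min. The shares of all transcripts moved in the same directions in these settings other than the last, where fewer of all transcripts were lower. With library totals 3 were higher and 16 lower, with a median of −0.08 against −0.10 for all transcripts. The list medians were 0.01 for 78 subunits of oxidative phosphorylation, −0.01 for 76 mitochondrial ribosomal proteins and 0.08 for 47 other mitochondrial proteins. NDUFC2, a subunit of complex I, was at 62.3, 89.8 and 62.1 CPM and then at 61.0, 39.2 and 44.4 CPM (−0.58 ± 0.19), and NDUFA9 of the same complex had the opposite sign (0.55 ± 0.17), both without overlap. Without replicate 2 at 10 min, the library that stood high, NDUFC2 was at −0.37 and MRPS33, described next, at −0.27. MRPS33 (−0.45 ± 0.15) and the prohibitin PHB1 (0.37 ± 0.13) did not overlap, and TFAM, which packages mitochondrial DNA, had a log2 fold change of −0.33 ± 0.16 with overlap. The class took 3.44% ± 0.0567 of CDS reads at 10 min and 3.35% ± 0.127 at 60 min (SD, n = 3; exact permutation test, p = 0.4).

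**Figure D4:**
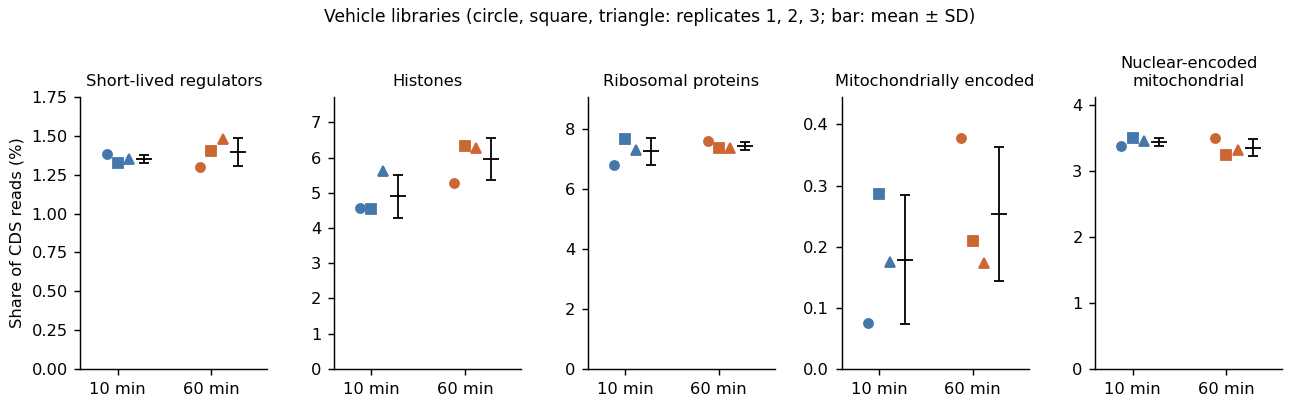
Share of CDS reads in percent (vertical axes, linear, from 0) taken by 5 gene classes in each vehicle library at 10 min (blue) and 60 min (orange), with the mean ± SD in black. The times overlap in all 5 classes, histones run from 4.54% to 6.33%, and mitochondrially encoded genes run from 0.0752% in replicate 1 at 10 min to 0.378% in replicate 1 at 60 min.

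In the stress lists the counts at an unadjusted p under 0.05 are small, and 3.05% of all transcripts were higher and 3.88% lower at that p. In the integrated stress response list 0 of 30 genes were higher and 1 lower, with a median of 0.00. ATF4, its central factor, was at 58.4 ± 7.45 CPM at 10 min and 54.3 ± 14.3 CPM at 60 min (SD, n = 3), and DDIT3 (CHOP) was at 2.15 ± 0.510 and 1.33 ± 0.385 CPM with 21.7 reads a library. The 1 was DDIT4, an inhibitor of mTORC1, with a log2 fold change of −0.54 ± 0.21. In the unfolded protein response 0 of 24 were higher and 2 lower, XBP1 (−0.36 ± 0.15) and DNAJC3 (−0.43 ± 0.15, and −0.23 without replicate 2 at 10 min, a setting in which 0 of the 24 were lower), while the chaperone HSPA5 was at 1486 ± 164 and 1489 ± 84.8 CPM (SD, n = 3). Of 16 heat shock genes 0 were higher and 1 lower, DNAJB1, at 100, 103 and 135 CPM and then at 91.0, 66.9 and 92.5 CPM (−0.43 ± 0.16, and −0.27 without replicate 3 at 10 min). HSPA1A had no entry under that name. Among 22 NRF2 targets 1 was higher, the ferritin heavy chain FTH1 (0.26 ± 0.11), and 1 lower, the quinone reductase NQO1 (−0.24 ± 0.10).

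In the metabolic and cell-type lists 0 to 2 genes were higher and 0 to 1 lower at the same p, which sets them against the same 3.05% and 3.88%. Of 30 sterol genes 0 were higher and 1 lower, HSD17B7 (−0.53 ± 0.21), a reductase of cholesterol synthesis. Without replicate 3 at 10 min 4 were lower, and without replicate 2 at 60 min 4, where 5.1% and 2.57% of all transcripts were. Without any other single library 0 were lower. MSMO1, a sterol demethylase, had a log2 fold change of −0.55 ± 0.27. Of 24 hepatocyte genes 1 was higher, A1BG, at 8.02 ± 0.325 and 10.8 ± 1.66 CPM, and AFP, the fetal plasma protein that Huh7 makes in large amounts, was at 11989 ± 2065 and 10927 ± 983 CPM (SD, n = 3). Of 4 glucose-responsive genes TXNIP was the one that differed, with the other three between −0.44 and 0.11. In 21 cytoskeletal targets of serum response factor the median was 0.12, with 2 higher, ACTG1 (0.42 ± 0.17) and FLNA (0.49 ± 0.20), and these 2 and ACTB were each lowest in replicate 2 at 10 min. The count was 0 without that library, without replicate 2 at 60 min and without replicate 3 at 60 min, and 5 without replicate 3 at 10 min. In these settings 1.88%, 1.98%, 2.16% and 5.79% of all transcripts were higher. Of 24 hypoxia and glycolysis genes 1 was higher, the pyruvate kinase PKM, at 1831, 1624 and 1794 CPM and then at 2321, 2289 and 2064 CPM (0.35 ± 0.11).

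The 12 libraries that received PF-06446846 give the same interval and share no library with the vehicle comparison. Replicate 3 at 60 min was alike across treatments in some genes, such as DUSP1. Scaled together, its DUSP1 level was 67.1 CPM in vehicle and 70.4 and 65.7 CPM at the lower and higher dose. The other DUSP1 libraries at 60 min ran from 31.1 to 42.5 CPM. Whether same-numbered plates were handled together across treatments is not stated and was not tested. Agreement with vehicle is therefore not shown to be independent. In the 12 compound libraries, fitted together with the dose as a term, 27 of 11196 transcripts passed the FDR of 0.1 (edgeR). Of these, 14 were higher (0.125%) and 13 lower (0.116%) at 60 min. That fit leaves out the replicate numbers. With the replicate number as a block within each dose, an alternative chosen after seeing the data, 43 rose (0.384%) and 35 fell (0.313%). The 27 were among them. Neither fit models replicate numbers shared between the doses. Their adjusted p-values count same-numbered libraries of the doses as independent and may be too small. All 27 had the same sign in vehicle, where 57.8% of 11078 transcripts did, and 19 of them were at an unadjusted p under 0.05 in vehicle, where 3.05% of all transcripts were higher and 3.88% lower. TXNIP rose in the compound libraries, with a log2 fold change of 1.37 ± 0.13 (SE; adjusted p = 7.94e-05), as did GADD45B (1.43 ± 0.19; adjusted p = 0.00225), ATF3 (1.28 ± 0.19; adjusted p = 0.00842), KLF10 (0.67 ± 0.11; adjusted p = 0.0205) and DUSP1 (1.30 ± 0.23; adjusted p = 0.0295). CCN1 (0.77 ± 0.16; adjusted p = 0.0825) and H2BC3 (0.49 ± 0.10; adjusted p = 0.0614) rose as well. FTH1 rose by 0.56 ± 0.07 (adjusted p = 0.00129), while it had 0.26 ± 0.11 in vehicle. FOXA3 fell by 0.63 ± 0.12 (adjusted p = 0.0553), DDIT4 fell by 0.89 ± 0.13 (adjusted p = 0.00653) and ZNF189, a zinc finger gene, fell by 0.71 ± 0.14 (adjusted p = 0.076). Other genes that separated the times in vehicle did not pass here. ID1 had a log2 fold change of 0.35 ± 0.10 (adjusted p = 0.282), against 0.78 in vehicle, MYC of −0.17 ± 0.08 (adjusted p = 0.657), against −0.51, and H4C8 of 0.23 ± 0.15 (adjusted p = 0.792), against 0.65.

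Dose by dose, 1 transcript passed in the 0.3 μM libraries (0.00895% of 11177), TXNIP, and 2 passed in the 1.5 μM libraries (0.0182% of 10999), TXNIP and GADD45B. In the 0.3 μM libraries same-numbered replicates deviated together, with correlations of 0.379, 0.374 and 0.462 across transcripts, and with the replicate number as a block 75 transcripts rose (0.671%) and 32 fell (0.286%). The vehicle and the 1.5 μM libraries did not pair in this way, with correlations of −0.239, 0.226 and 0.0607 for 1.5 μM. TXNIP was, in CPM scaled over 20 libraries, at 21.6, 22.98 and 15.3 at 10 min and at 56.3, 49.1 and 41.3 at 60 min with 0.3 μM, and at 22.3, 19.2 and 19.2 and then at 64.4, 62.1 and 41.0 with 1.5 μM. In every one of the 3 treatments its replicate 3 was the lowest library at 60 min.

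**Figure D5:**
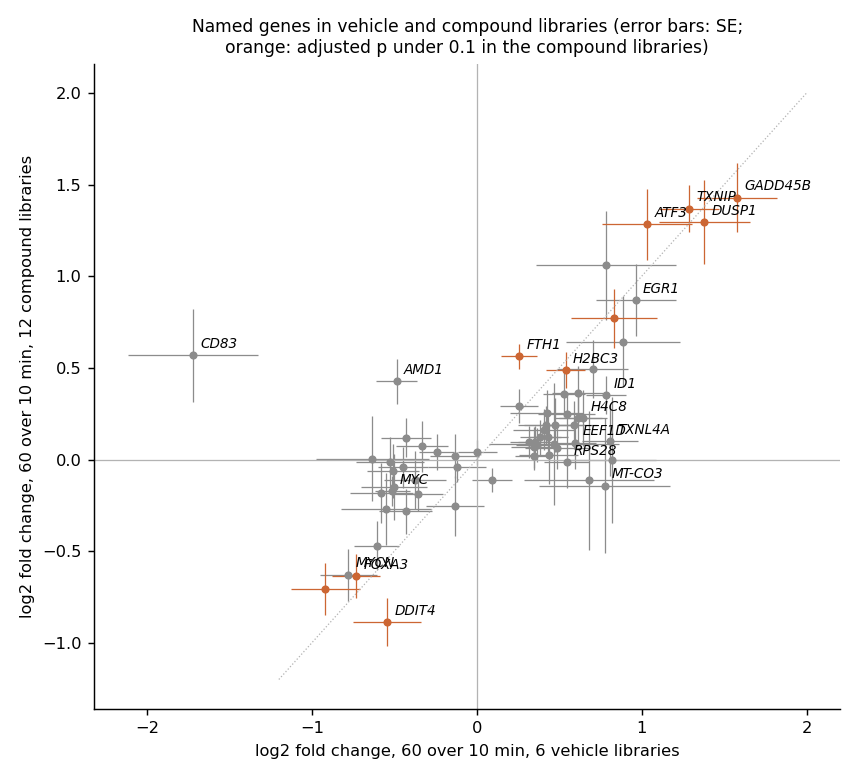
Log2 fold change between 60 and 10 min of the named genes in the 6 vehicle libraries (horizontal axis) and in the 12 compound libraries (vertical axis), with SE bars on both and genes past the FDR of 0.1 in the compound libraries in orange. TXNIP, GADD45B, DUSP1 and ATF3 lie near the dotted line of equal values at the upper right, EEF1D and TXNL4A lie near 0 on the vertical axis, AMD1 lies at −0.49 in vehicle and 0.43 in compound libraries, and CD83, with few reads, lies at −1.72 and 0.57.

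Whether the time difference itself differed between vehicle and compound was tested as an interaction. No transcript passed the FDR of 0.1 by edgeR or DESeq2. For 0.3 μM this was 0% of 11288 by edgeR and 0% of the 12076 to which DESeq2 gave an adjusted p. At an unadjusted p under 0.05 there were 152 by edgeR and 127 by DESeq2. For 1.5 μM it was 0% of 11167 by edgeR and 0% of 12073 by DESeq2, with 506 and 448 at that unadjusted p. For TXNIP the log2 fold change in vehicle minus that with compound was 0.01 ± 0.26 for 0.3 μM and −0.17 ± 0.27 for 1.5 μM (SE). AMD1 had the opposite sign in vehicle and compound, with 51.1, 50.5 and 56.9 CPM and then 41.8, 34.6 and 37.0 CPM in vehicle against log2 fold changes of 0.32 ± 0.16 with 0.3 μM and 0.55 ± 0.16 with 1.5 μM. The log2 fold change in vehicle minus that with compound was −0.80 ± 0.21 for 0.3 μM (adjusted p = 0.9996) and −1.02 ± 0.21 for 1.5 μM (adjusted p = 0.856), and neither passed. The class medians with 0.3 and 1.5 μM were 0.39 and 0.10 for core histones, 0.13 and 0.06 for ribosomal proteins, −0.01 and −0.36 for mitochondrially encoded genes and 0.07 and 0.05 for short-lived regulators. Of the 158 short-lived regulators, 9 passed the FDR of 0.1 as higher and 1 as lower in the fit of the 12 compound libraries, where 0.125% and 0.116% of all transcripts did. At 10 min, histones already took 6.38% of CDS reads with 1.5 μM, compared with 4.91% in vehicle and 4.96% with 0.3 μM, and at 60 min they took 6.66%, 5.95% and 6.08%.

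The 2 vehicle libraries of the second study, harvested at 60 min and scaled together with the others, had no 10-min partner, so their values are set beside the first study without a test. TXNIP was at 22.1 and 31.1 CPM, below all 3 vehicle libraries at 60 min of the first study. GADD45B was at 38.4 and 31.9 CPM, ATF3 at 15.1 and 15.3 CPM and MYC at 101 and 98.8 CPM, near the 60-min values of the first study, whereas CCN1 was higher, at 231 and 155 CPM. ID1 was at 250 and 253 CPM, between the 2 times. H2BC3 was at 462 and 536 CPM, within the range of the 10-min libraries, and all histones took 5.34% and 5.58% of CDS reads.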

How the data were processed

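Members and gene lists were chosen with earlier results of these data known. The authors removed adapter and rRNA sequence and aligned footprints with Bowtie 1.1.2 to 1 isoform per expressed gene (GRCh38, isoforms chosen with kallisto 0.42.5, per the labels), kept reads with at most 5 equally good sites, and deposited raw counts of reads at each codon, without normalization. Multiply placed reads count on each of their sites. Here counts were summed over each CDS and named with GENCODE 44, and 827 of 12325 transcripts had no name. Groups follow the labels. The times were compared with edgeR 4.0.16 (filterByExpr, TMM, glmQLFit, glmQLFTest, R 4.3.3) with no block, Benjamini-Hochberg adjustment over all transcripts tested and an FDR of 0.1. SE is the log2 fold change over the root of F. DESeq2 1.42.0, other scalings, filters, codons, blocks and left-out libraries were alternatives. Shares were compared with exact permutation tests. Figures and shares used Python 3.11.15. The text draws its names from the 6 smallest p-values in each direction, the 2 highest levels per kilobase and 3 smallest p-values of each list, and a fixed set of immediate early, stress, sterol, liver, mitochondrial and H2B and H4 genes, and adds NFKBIA, KLF10, AMOTL2, RND1, RPL39, RPS20, NFIL3, BCL6, BHLHE40, NR4A2 and the ZNF list, chosen after their values were seen. On simulated data of the vehicle comparison (11098 transcripts), 93.5% of 200 transcripts changed by a log2 of 1 were recovered, with 9.66% false calls. For the interaction with 0.3 μM (11288 transcripts) 67% were recovered, with 8.84% false calls. These shares hold for changed transcripts averaging at least 50 reads, with 200 true changes and independently drawn counts. Smaller or fewer changes were not simulated. In the real vehicle comparison TXNIP, GADD45B and DUSP1 differed by more than a log2 of 1 and did not pass. A count of 0 therefore does not show that such differences were absent. Whether replicate numbers pair the vehicle libraries was checked over 8497 transcripts by the correlation of same-numbered deviations from the group means (−0.118, −0.0714 and 0.532), which does not pair all of them. Replicate 2 at 10 min correlated with replicate 1 at 60 min (0.419), and replicate 1 at 10 min with replicate 2 at 60 min (0.273). The other differently numbered pairs ran from −0.426 to −0.117. A block with these numbers crossed was not fitted. mRNA-seq and the compound libraries of the second study were not used. A few results are not reported here.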

Additional observations from a re-analysis of the deposited data

How the results depend on the processing

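The count of transcripts past the FDR between the times in vehicle was 0, and it was also 0 with DESeq2 size factors in edgeR, with library totals only, with TMM factors from other transcripts, at an FDR of 0.05 and with codons after 50 or without the last 15. It was 43 with DESeq2, 17 with DESeq2 without its filter on mean counts (chosen after seeing the data), 3 without a filter on low counts (TXNIP, GADD45B and ID1), 1 with all 18 libraries in a single fit, and 0 to 1 when each library was left out, where the 1 came without replicate 3 at 60 min. The labels give both times replicate numbers 1 to 3, but same-numbered vehicle libraries did not all deviate together (0.532 for replicate 3, −0.118 and −0.0714 for the others). With the replicate block edgeR called 7, TXNIP, GADD45B, DUSP1, ID1, CCN1 and NFKBIA higher and MYCN lower, and DESeq2 called 46. In the 12 compound libraries the count was 78 with the replicate block in place of 27. For 0.3 μM the count was 5 with DESeq2 and 107 with the replicate block in place of 1, and for 1.5 μM it was 13 with DESeq2 in place of 2. The interactions stayed at 0 under every alternative run. Some counts of 0 lay close to the threshold, with a smallest adjusted p of 0.102 for the 1.5 μM interaction by DESeq2. In vehicle without the last 15 codons the smallest adjusted p by edgeR was 0.1001. Over 17 alternatives (16 for RPS20), 69 of 74 named genes kept 1 direction. The sign turned with library totals for MCL1 (−0.00038) and HSPA5 (−0.095), after codon 50 for ATF4 (0.067), RPL39 (0.083) and HSPA5 (−0.018) and without the last 15 codons for HSPA5 (−0.011). When each library was left out the log2 fold change ran from −0.21 to 0.020 for ZFP36, −0.34 to 0.013 for ATF4 and −0.065 to 0.094 for HSPA5. FOS, DDIT3 and CD83 rest on 25.0, 21.7 and 17.7 reads a library.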

Other observations

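Transcripts of zinc finger genes named ZNF and a number, a list formed after their values were seen, lay to the lower side at 60 min in vehicle. The median log2 fold change of the 303 tested was −0.15 in vehicle, and −0.15 and −0.04 in the libraries with 0.3 and 1.5 μM. The list took 0.438% ± 0.0309 of CDS reads at 10 min and 0.379% ± 0.0185 at 60 min (SD, n = 3). Since the values chose the list, these are a description with no test. ZNF189 was at 9.79, 8.54 and 7.92 CPM at 10 min and at 4.86, 3.76 and 5.55 CPM at 60 min, with a log2 fold change of −0.92 ± 0.21 (SE).

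The first 50 codons held 12.5% ± 1.2 of CDS reads at 10 min and 13.5% ± 0.34 at 60 min (SD, n = 3; exact permutation test, p = 0.3). The last 15 codons held 9.11% ± 1.2 and 8.69% ± 0.82 (exact permutation test, p = 0.8). By CDS length, the median log2 fold change was 0.00 for 1330 transcripts under 150 codons, −0.02 for 3995 from 150 to under 400, −0.00 for 4512 from 400 to under 1000 and 0.02 for 1261 of 1000 codons or more.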
